A study of Mus musculus with 8 samples.

Results

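*Lrtm1*, *Ppp1r1b* and *Arhgap36* are 3 genes whose transcripts were far less abundant in embryonic ventricles that overproduced neuregulin-1 than in WT ventricles. They were matched by symbol to 3 of the 53465 genes in the expression table, and each was among the 15580 genes that passed the filter on low counts. They were chosen for a steep fall in all 4 libraries with excess neuregulin-1, so the size and direction of their change are given here as a description, with no test. The same holds for *Hey2*, the compact myocardium marker of the study, which was set beside them for comparison.

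Poly(A) RNA was measured by RNA-seq in heart ventricles of mouse embryos at E15.5. The mutant group, called *Nrg1GOF* here, held 4 libraries of the genotype Rosa26Nrg-1;Nkx2.5-Cre, in which an *Nrg1* transgene placed in Rosa26 is switched on by Cre in the Nkx2.5 lineage. The sample labels write the driver as Nkx5.5-Cre and the series title as Nkx2.5-Cre. The control group held 4 WT libraries, described as WT alone, so the labels do not say whether these embryos carried the transgene or Cre without the other. The design states 1 ventricle per replicate, yet every library held both *Xist* and Y-linked transcripts, and the labels do not say whether tissue of several embryos was pooled, so what a replicate stands for is not certain. The Cre marks cells of the Nkx2.5 lineage, and the ventricle also holds cells outside that lineage, such as blood cells and macrophages. Strain and litter were not given in the labels. The count of *Nrg1* does not separate the transgene from the endogenous gene, and its level was 4.03 ± 0.652 CPM (counts-per-million on the scaled library size, mean ± SD, n = 4 here and for every mean below) in WT and 61.8 ± 1.90 CPM in *Nrg1GOF*, the direction that the labels require. Library totals ran from 18754259 to 26786039 counts in WT and from 20578081 to 22547833 counts in *Nrg1GOF* libraries 1 to 3, and *Nrg1GOF* library 4 held 8038641 counts. The WT libraries fell into pairs, with Y-linked genes summing to 87.0 and 90.7 CPM in libraries 1 and 2 and to 193 and 184 CPM in libraries 3 and 4, and red blood cell markers to 6310 and 5600 CPM and to 2740 and 2290 CPM. They may therefore not be 4 independent samples, and with each pair summed 916 genes were called lower in place of 1993, while the log2 fold changes of the members were -3.64 for *Lrtm1*, -2.16 for *Ppp1r1b* and -2.92 for *Arhgap36*.

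Neuregulin-1 is a secreted ligand that signals through ErbB receptors on cardiomyocytes and promotes trabeculation, the growth of muscular ridges into the ventricular lumen. The outer wall, the compact myocardium, expresses *Hey2*, a basic helix-loop-helix repressor of the Notch target family. *Lrtm1* encodes a membrane protein with leucine-rich repeats. *Ppp1r1b* encodes DARPP-32, best known in striatal neurons, which inhibits protein phosphatase 1 (PP1) when protein kinase A (PKA) phosphorylates it and inhibits PKA when *Cdk5* phosphorylates it. *Arhgap36* encodes a protein that binds and inhibits the catalytic subunit of PKA and raises the activity of GLI factors, the transcription factors of Hedgehog signalling. DARPP-32 and *Arhgap36* therefore both act on PKA.

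*Lrtm1* (ENSMUSG00000045776) lies on the plus strand of chromosome 14, at chr14:29018208-29033645 (GRCm38), with 3 annotated transcripts of at most 3 exons. The whole gene sits within the span of *Cacna2d3*, a calcium channel subunit gene on the opposite strand, and shares 0 exonic bases with it. *Ppp1r1b* (ENSMUSG00000061718) lies on the plus strand of chromosome 11, at chr11:98348404-98357796, with 7 transcripts of at most 7 exons. Of its 2928 exonic bases, 460 (15.7%) are shared with *1700003D09Rik*, a non-coding transcript on the opposite strand. *Arhgap36* (ENSMUSG00000036198) lies on the plus strand of the X chromosome, at chrX:49463945-49500244, with 5 transcripts of at most 13 exons. *Hey2* (ENSMUSG00000019789) lies on the minus strand, at chr10:30832359-30842801.

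Because these genes fell together, the promoters available for them are shown side by side, with their base composition and a search for the motifs of cardiac, Notch, Hedgehog and cAMP factors. Each runs from 250 bases before to 50 bases after an annotated transcription start and is printed 5′ to 3′ on the strand of the gene, from RefSeq (GRCm38.p6). Capitals mark matches to the motifs named after the sequences. A promoter of *Ppp1r1b* is not shown here.
*Lrtm1*, chr14:29017958-29018257, plus strand: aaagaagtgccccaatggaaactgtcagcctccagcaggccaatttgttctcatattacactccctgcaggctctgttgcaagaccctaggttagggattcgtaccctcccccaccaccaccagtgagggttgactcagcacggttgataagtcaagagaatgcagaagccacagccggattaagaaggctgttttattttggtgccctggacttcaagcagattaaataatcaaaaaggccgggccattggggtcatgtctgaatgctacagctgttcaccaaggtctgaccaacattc
*Arhgap36*, upstream start, chrX:49463695-49463994, plus strand: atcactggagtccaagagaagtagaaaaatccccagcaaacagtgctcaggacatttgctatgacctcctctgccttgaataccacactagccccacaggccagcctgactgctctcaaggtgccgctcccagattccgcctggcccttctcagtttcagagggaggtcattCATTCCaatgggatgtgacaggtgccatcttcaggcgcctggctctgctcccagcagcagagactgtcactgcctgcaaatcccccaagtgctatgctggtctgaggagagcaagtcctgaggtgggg
*Arhgap36*, downstream start, chrX:49470200-49470499, plus strand: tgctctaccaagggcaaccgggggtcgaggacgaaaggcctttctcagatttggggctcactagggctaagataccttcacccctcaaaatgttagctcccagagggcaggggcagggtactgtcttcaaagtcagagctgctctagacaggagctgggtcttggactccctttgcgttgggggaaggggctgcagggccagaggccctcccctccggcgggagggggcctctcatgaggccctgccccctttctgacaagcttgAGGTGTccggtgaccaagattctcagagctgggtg
*Hey2*, chr10:30842734-30843033, minus strand: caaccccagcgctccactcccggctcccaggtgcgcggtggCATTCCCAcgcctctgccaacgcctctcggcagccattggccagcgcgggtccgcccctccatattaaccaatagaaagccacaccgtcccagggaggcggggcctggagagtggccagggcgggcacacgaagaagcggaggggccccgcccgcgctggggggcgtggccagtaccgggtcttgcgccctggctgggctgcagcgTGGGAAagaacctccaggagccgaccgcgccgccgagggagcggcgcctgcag

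The promoters differed in base composition. The *Lrtm1* promoter held 49.3% G and C, at percentile 36.9 of the 32851 mouse promoters in the table. The *Arhgap36* promoters held 55.7% at the upstream start and 60.3% at the downstream start, at percentiles 58.6 and 71.4. The *Hey2* promoter was the most GC-rich of these, with 72.0% and percentile 93.1.

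In all, 10 motifs were searched on both strands: the E-box of HEY and HES factors (CACGTG), the NKX2-5 motif (TNAAGTG), the GATA motif (AGATAA), the TEAD motif (GGAATG), the T-box motif (AGGTGT), the ETS motif (GGAAGT), the cAMP response element (TGACGTCA), the GLI motif (TGGGTGGTC), the RBPJ motif (TGGGAA) and the TATA box (TATAAA). Only the letters printed here were searched, with N as any base, so other forms of a motif were not counted. None of the 10 was found in this form in the *Lrtm1* window. The upstream *Arhgap36* window held 1 TEAD match on the opposite strand, whose first base as printed lies 78 bases before the start, and the downstream *Arhgap36* window held 1 T-box match that begins 15 bases after the start. The *Hey2* window held an RBPJ match that begins 3 bases before the start, and a TEAD match and an RBPJ match on the opposite strand that overlap, beginning 209 and 207 bases before the start. These are common letters: of all promoters of this length, 14.7% held the TEAD motif, 13.7% the T-box motif and 25.6% the RBPJ motif. The motif shares of the others were 7.15% for the E-box, 11.5% for NKX2-5, 11.2% for GATA, 23.8% for ETS, 1.79% for the cAMP response element, 0.253% for GLI and 13.6% for the TATA box. No motif was shared by windows of *Lrtm1* and *Arhgap36*, and a match here is a run of letters, not a shown binding site.

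*Lrtm1* fell furthest of the 3. In WT libraries 1 to 4 its level was 15.4, 16.6, 15.2 and 15.1 CPM, from 403, 305, 375 and 369 counts. In *Nrg1GOF* libraries 1 to 4 it was 1.13, 1.00, 1.03 and 2.25 CPM, from 25, 21, 24 and 18 counts. The WT libraries were close to each other and the *Nrg1GOF* libraries were all far below them, with the highest *Nrg1GOF* value at 14.9% of the lowest WT value. The WT mean of 15.6 ± 0.716 CPM compares with 1.35 ± 0.601 CPM for *Nrg1GOF*, which left 8.68% of the WT level. The log2 fold change was -3.66 (SE 0.20), and 2 of the 15580 tested genes had a lower value.

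Within the *Nrg1GOF* group, *Lrtm1* in library 4 stood above the other three. That library was also the shallowest, and the exact 95% Poisson interval of its value, 1.33 to 3.56 CPM, overlapped those of library 1 (0.734 to 1.67 CPM), library 2 (0.619 to 1.53 CPM) and library 3 (0.658 to 1.53 CPM). These intervals cover counting error only, not variation between samples. The reads carried no molecular identifiers, so duplicate reads could not be told apart and the intervals may be too narrow. All 4 values lay above the floor of 3 counts, which ran from 0.128 to 0.375 CPM in the *Nrg1GOF* libraries. *Cacna2d3*, the gene that spans *Lrtm1*, had 1 to 11 counts in the WT libraries and 4 to 9 counts in the *Nrg1GOF* libraries, too few to be tested.

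*Ppp1r1b* was the most abundant of the 3. Its level in WT libraries 1 to 4 was 48.0, 49.0, 53.1 and 51.3 CPM, from 898 to 1314 counts. In *Nrg1GOF* libraries 1 to 4 it was 9.76, 11, 12.3 and 12 CPM, from 215, 231, 288 and 96 counts. The groups did not come near each other, and the shallow *Nrg1GOF* library 4 sat among the other libraries of its group. The mean went from 50.3 ± 2.32 CPM to 11.3 ± 1.15 CPM, with 22.4% of the WT level left. The log2 fold change was -2.17 (SE 0.08), with 19 tested genes lower. The transcript that overlaps its exons, *1700003D09Rik*, had 1 count in *Nrg1GOF* library 2 and 0 counts in the other 7 libraries.

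*Arhgap36* was the least abundant of the 3. Its level in WT libraries 1 to 4 was 4.55, 3.98, 3.48 and 3.81 CPM, from 119, 73, 86 and 93 counts. In *Nrg1GOF* libraries 1 to 4 it was 0.408, 0.714, 0.641 and 0.125 CPM, from 9, 15, 15 and 1 counts. Every *Nrg1GOF* library was below every WT library, and library 4 of *Nrg1GOF* was the lowest, the opposite of its place for *Lrtm1*. Its single count is under the floor of 3 counts for that library (0.375 CPM), and its 95% interval reaches from 0.00316 to 0.697 CPM, which covers the values of library 1 and library 3. The mean went from 3.96 ± 0.447 CPM to 0.472 ± 0.266 CPM, with 11.9% of the WT level left. The log2 fold change was -2.91 (SE 0.31), the widest error of the 3, with 7 tested genes lower.

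*Hey2*, by comparison, was at 183, 179, 200 and 188 CPM in WT libraries 1 to 4 and at 53.5, 53.2, 51.0 and 54.1 CPM in *Nrg1GOF* libraries 1 to 4. Its 4 *Nrg1GOF* values lay within a narrow band, library 4 included. The mean went from 187.4 ± 8.82 CPM to 53.0 ± 1.37 CPM, so 28.2% of the WT level was left, with a log2 fold change of -1.82 (SE 0.05) and 36 tested genes lower. Each of the 3 genes thus kept a smaller share of its WT level than *Hey2* did.

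**Figure D1:**
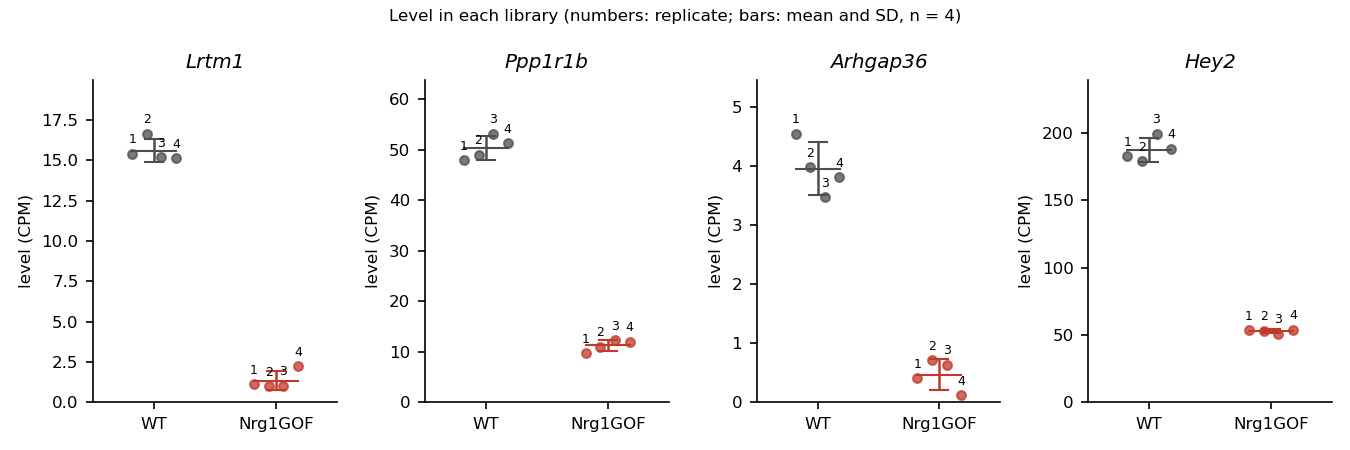
Level in CPM (vertical axes, each from 0) of *Lrtm1*, *Ppp1r1b*, *Arhgap36* and *Hey2* in the 4 WT and 4 *Nrg1GOF* libraries; points are libraries marked with their replicate number, and bars show the mean and SD. In each panel all *Nrg1GOF* libraries lie below all WT libraries, and library 4 of *Nrg1GOF* is the highest of its group for *Lrtm1* (2.25 CPM) and the lowest for *Arhgap36* (0.125 CPM).

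Such a separation was not rare in these data. Of all tested genes, 14.1% had all 4 *Nrg1GOF* libraries below all 4 WT libraries, and 12.8% were called lower by the quasi-likelihood test of edgeR (adjusted p under 0.05), while 15.9% were called higher. What set the 3 genes apart at their choice was the size of the fall. Among 1686 protein-coding genes that were called lower without overlap and had an average log2 CPM of at least 1, only *Kcnd2* and *Cdh20* lay between them. These limits left out other steep fallers. Over all tested genes 19 had a lower log2 fold change than *Ppp1r1b*, the other members, *Kcnd2* and *Cdh20* among them. *Kcnd2*, a potassium channel of the transient outward current, went from 11.2 ± 0.345 to 1.59 ± 0.481 CPM, and its log2 fold change was -2.76 (SE 0.18). *Cdh20*, a classical cadherin, went from 9.87 ± 1.23 to 1.86 ± 0.299 CPM, and its log2 fold change was -2.37 (SE 0.15). The next gene after *Ppp1r1b* was *Ush1c*, at a log2 fold change of -2.08. These neighbours in rank were chosen on the same contrast and carry no test either.

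Levels of different genes were compared as CPM per kilobase of exon. In WT the order from high to low was *Hey2* at 40.8 ± 1.92, *Ppp1r1b* at 17.2 ± 0.793, *Lrtm1* at 1.96 ± 0.0902 and *Arhgap36* at 1.16 ± 0.131 CPM per kilobase. No neighbours in that order overlapped over the 4 WT libraries, since *Lrtm1* was at 1.90 or more and *Arhgap36* at 1.33 or less. In *Nrg1GOF* the order was the same at its upper end, with *Hey2* at 11.5 ± 0.298 and *Ppp1r1b* at 3.85 ± 0.394 CPM per kilobase. *Lrtm1* at 0.170 ± 0.0757 and *Arhgap36* at 0.138 ± 0.0777 CPM per kilobase differed there by less than the spread between libraries. Among all tested genes, *Ppp1r1b* went from percentile 81.9 to percentile 44.2 of the level per kilobase, *Lrtm1* from 31.1 to 3.41, *Arhgap36* from 23.8 to 2.25 and *Hey2* from 93.1 to 73.2. *Ppp1r1b* thus moved from the upper part to the middle of the tested range, and *Lrtm1* and *Arhgap36* to its lower edge.

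The relation of the 3 genes to *Hey2* was examined as counts per 100 *Hey2* counts within each library, a ratio that does not depend on library scaling. For *Ppp1r1b* it was 26.2, 27.3, 26.6 and 27.2 in WT libraries 1 to 4 and 18.2, 20.7, 24.2 and 22.2 in *Nrg1GOF* libraries 1 to 4. The WT ratios were nearly constant, and the *Nrg1GOF* ratios were lower and more spread out. The mean was 26.9 ± 0.510 in WT and 21.3 ± 2.49 in *Nrg1GOF*, so *Ppp1r1b* came close to keeping step with *Hey2* without reaching it in any *Nrg1GOF* library.

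*Lrtm1* and *Arhgap36* lost ground against *Hey2*. *Lrtm1* per 100 *Hey2* counts was 8.43, 9.28, 7.60 and 8.03 in WT libraries 1 to 4 and 2.12, 1.88, 2.01 and 4.16 in *Nrg1GOF* libraries 1 to 4, a mean of 8.34 ± 0.714 against 2.54 ± 1.08. *Arhgap36* per 100 *Hey2* counts was 2.49, 2.22, 1.74 and 2.02 in WT and 0.764, 1.34, 1.26 and 0.231 in *Nrg1GOF*, a mean of 2.12 ± 0.314 against 0.899 ± 0.513. For both genes the highest *Nrg1GOF* ratio stayed below the lowest WT ratio. No correlation with *Hey2* is given, because the 8 libraries form separate clusters by genotype and each cluster holds 4 libraries.

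**Figure D2:**
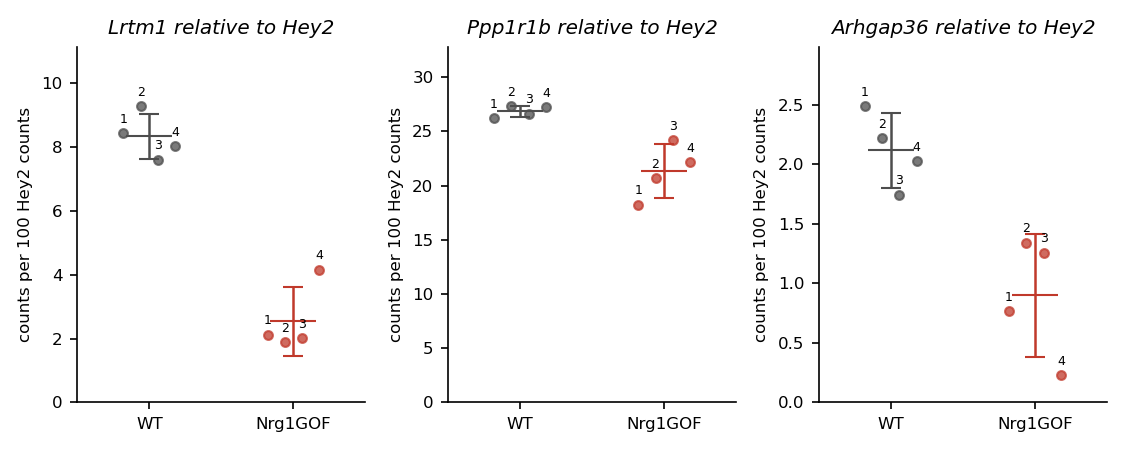
Counts of *Lrtm1*, *Ppp1r1b* and *Arhgap36* per 100 *Hey2* counts (vertical axes, each from 0) in the WT and *Nrg1GOF* libraries; points are libraries marked with their replicate number, and bars show the mean and SD of 4. The *Ppp1r1b* ratio lies between 26.2 and 27.3 in WT and between 18.2 and 24.2 in *Nrg1GOF*, and the other two genes drop further.

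Within a genotype the genes did not rank the libraries alike. In WT, *Hey2* and *Ppp1r1b* were both highest in library 3 and next highest in library 4, whereas *Lrtm1* was highest in library 2 and *Arhgap36* in library 1. In *Nrg1GOF*, *Hey2* and *Lrtm1* were highest in library 4, *Ppp1r1b* in library 3 and *Arhgap36* in library 2. The coefficient of variation rose from 4.59% in WT to 44.4% in *Nrg1GOF* for *Lrtm1*, from 11.3% to 56.3% for *Arhgap36* and from 4.61% to 10.2% for *Ppp1r1b*, and was 4.70% and 2.59% for *Hey2*. The larger values belong to the groups with the fewest counts, and how much of them is counting error was not tested.

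The likeness of profiles was measured as the root mean square difference of log2 CPM over the 8 libraries, with each gene centred on its own mean, among 13808 protein-coding genes. It is dominated by the genotype difference that chose the members, so near profiles are mostly those with a fall of like size. For *Ppp1r1b* the 5 nearest were *Sh2d4a* (0.157), *Ky* (0.171), *Scd4* (0.194), *Hey2* (0.197) and *Papln* (0.253). *Sh2d4a* is an SH2 domain adaptor, *Ky* a protease-like muscle protein, *Scd4* a stearoyl-CoA desaturase and *Papln* an extracellular matrix protein. Their log2 fold changes were -2.08 (SE 0.11) for *Sh2d4a*, -1.94 (SE 0.08) for *Ky*, -1.92 (SE 0.16) for *Scd4* and -1.78 (SE 0.18) for *Papln*. *Hey2* was thus the fourth nearest profile of *Ppp1r1b*, and *Ppp1r1b* ranked 6 from *Hey2*.

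The profiles nearest to *Lrtm1* and *Arhgap36* lay farther off. For *Lrtm1* they were *Sox3* (0.519), *Olfr608* (0.557), *Kcnd2* (0.628), *Cdh20* (0.731) and *Ppp1r1b* (0.747). *Sox3*, a SOX transcription factor gene on the X chromosome, went from 2.83 ± 0.265 to 0.342 ± 0.0768 CPM. That *Nrg1GOF* mean is under the floor of 3 counts in library 4 (0.375 CPM), so no fold is given. *Olfr608*, an olfactory receptor gene, was at 1.03 ± 0.377 CPM in WT and at 0.0658 ± 0.0555 CPM in *Nrg1GOF*, under the floor of 3 counts there, so no fold is given. For *Arhgap36* the 5 nearest were *Slc28a2* (0.419), *Kcnd2* (0.490), *Atp2b2* (0.541), *Cdh20* (0.557) and *Sox3* (0.577). *Slc28a2*, a nucleoside transporter, went from 1.83 ± 0.266 to 0.320 ± 0.280 CPM, a level near the floor of 3 counts, and no fold is given. *Atp2b2*, a plasma membrane calcium pump, went from 2.21 ± 0.258 to 0.460 ± 0.170 CPM, and its log2 fold change was -2.16 (SE 0.26). Its *Nrg1GOF* mean lies not far above the 0.375 CPM floor of library 4. *Kcnd2*, *Cdh20* and *Sox3* appeared near both *Lrtm1* and *Arhgap36*. *Hey2* ranked 15 from each of them, at a distance of 0.903 from *Lrtm1* and 0.806 from *Arhgap36*. Seen from *Hey2*, *Lrtm1* ranked 6002 and *Arhgap36* 2298 of 13808, so neither was among its near profiles. The distance between *Lrtm1* and *Arhgap36* themselves was 0.883.

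**Figure D3:**
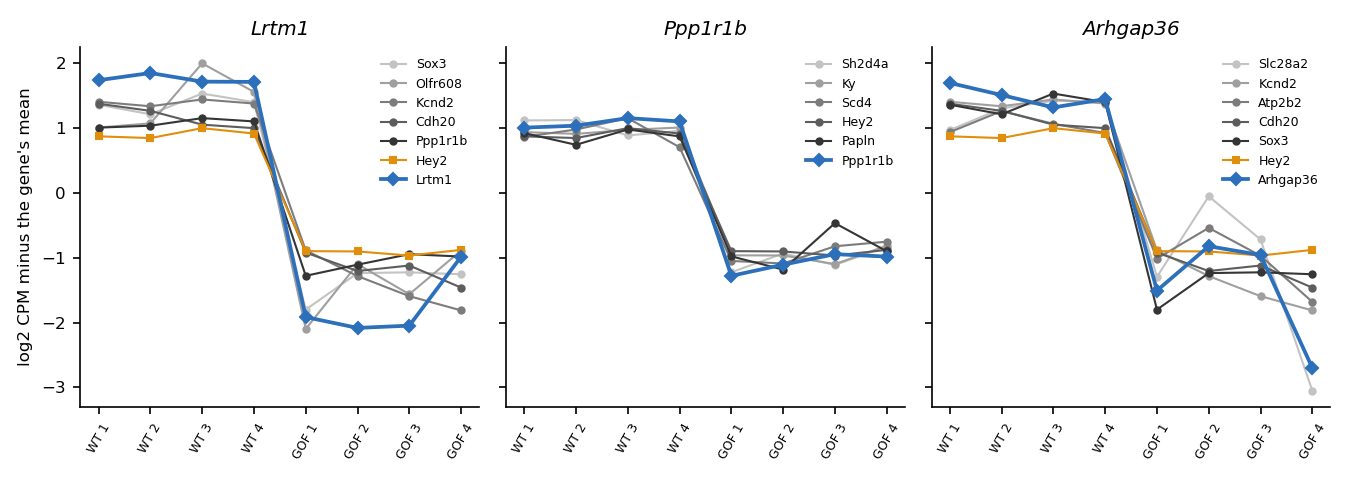
Log2 CPM minus each gene's mean over the 8 libraries (vertical axis) in WT libraries 1 to 4 and *Nrg1GOF* (GOF) libraries 1 to 4 (horizontal axis); blue is the gene named above the panel, grey its 5 nearest profiles and orange *Hey2* where it is not among them. The *Ppp1r1b* profile runs with those of its neighbours, *Hey2* included, while *Lrtm1* lies below its neighbours in *Nrg1GOF* libraries 2 and 3 (-2.08 and -2.05) and *Arhgap36* drops to -2.70 in *Nrg1GOF* library 4, where *Slc28a2* is at -3.05.

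The tissue was checked against cell type markers, since a level in bulk RNA cannot tell fewer cells of a type from less RNA per cell. The summed level of 6 cardiomyocyte markers was 40700 ± 450 CPM for WT and 35100 ± 2460 CPM for *Nrg1GOF*, 86.4% of the WT level, and its ranges did not overlap (40100 to 41200 CPM against 32500 to 38400 CPM). Of the 6, 2 were called lower by the quasi-likelihood test of edgeR, and the markers did not all move alike. *Myh7*, the most abundant, ran from 17000 to 18300 CPM in WT and from 11400 to 14100 CPM in *Nrg1GOF*, and *Tnnt2* (4610 to 5560 CPM against 3850 to 4830 CPM) and *Myl2* (4410 to 4560 CPM against 3160 to 4470 CPM) had lower ranges in *Nrg1GOF* that overlapped with WT. *Actc1* (10100 to 10700 CPM against 9320 to 11300 CPM) and *Nkx2-5* overlapped between the groups, and *Myh6* ran from 1960 to 3720 CPM and from 3640 to 4670 CPM. *Myh7* made up most of the drop in the sum. Scaled to this sum, the share of the WT level left was 9.87% for *Lrtm1*, 26% for *Ppp1r1b*, 14.2% for *Arhgap36* and 32.8% for *Hey2*, each somewhat above the share before scaling. The following counts of markers stand beside the 12.8% of all tested genes that were called lower and the 15.9% called higher. Among 6 epicardial and fibroblast markers, 5 were called higher and 1 lower, and their sum ran from 1300 to 1670 CPM in WT and from 2260 to 2900 CPM in *Nrg1GOF*. All 5 macrophage markers were called higher (27.2 to 31.7 CPM against 57.0 to 65.2 CPM), and 3 of 5 atrial markers (995 to 1110 CPM against 1600 to 1770 CPM). Endothelial markers summed to 1020 to 1050 CPM and 1080 to 1170 CPM with 3 of 6 called higher, and smooth muscle and pericyte markers to 1290 to 1480 CPM and 946 to 1050 CPM with 2 of 5 called lower and 2 higher. The part of these shifts in the values of *Lrtm1*, *Ppp1r1b* and *Arhgap36* was not tested.

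Because *Ppp1r1b* is best known from neurons, neuronal and glial markers were also examined. Of 7 such markers, 3 were abundant enough to be tested and 0 were called by the quasi-likelihood test of edgeR, by DESeq2 or by limma-voom, with 0 also at an unadjusted p under 0.05. Their sum ran from 9.38 to 14.6 CPM in WT and from 7.25 to 14.0 CPM in *Nrg1GOF*, so the groups overlapped. Red blood cell markers also overlapped (2290 to 6310 CPM against 2660 to 4450 CPM), with 0 of 5 called by the same tests and 0 at an unadjusted p under 0.05. Skeletal muscle markers summed to 4.10 to 6.96 CPM and 10.1 to 12.8 CPM with 2 of 5 tested and 1 of them called higher. Of these, *Myod1* and *Pax7* were at 0 counts in every library, *Myog* was at 0.299 to 0.905 CPM over all libraries, and *Myh8* ran from 3.2 to 6.42 CPM in WT and from 9.79 to 12.1 CPM in *Nrg1GOF*. Lung, liver and thymus markers reached 0.681 CPM at most, with *Sftpc* and *Foxn1* at 0 counts throughout.

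*Arhgap36* is X-linked, so the sex make-up of the libraries was set beside it. In WT, *Xist*, the transcript of the inactive X chromosome, ran from 147 to 461 CPM and the sum of 4 Y-linked genes from 87.0 to 193 CPM. In *Nrg1GOF* they ran from 135 to 647 CPM and from 60.0 to 176 CPM. Both ranges overlapped between the genotypes. With the summed Y-linked level as a covariate in the edgeR fit, the log2 fold change of *Arhgap36* was -2.94.

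The genes around each member were examined to see whether the fall extended along the chromosome. Of 32 neighbours, made up of the 5 nearest protein-coding genes on each side of a member and the 2 overlapping genes, 20 were tested. By the quasi-likelihood test of edgeR with Benjamini-Hochberg adjustment over all tested genes, 3 (15.0%) were called lower and 2 (10.0%) higher, beside the 12.8% and 15.9% of all tested genes. The number called fell from 5 to 1 without *Nrg1GOF* library 2, without WT library 3 or with the WT pairs summed. Fewer of all tested genes were called there too, with 916 lower and 1548 higher for the pairs summed against 1993 and 2474. The median log2 fold change of the 20 was -0.08, against -0.01 for all tested genes. None of the 20 moved by more than 0.67 on the log2 scale in either direction.

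Around *Lrtm1*, 8 genes were tested. The nearest, *Wnt5a*, a Wnt ligand 490760 bases away, had a log2 fold change of -0.16 (SE 0.06, edgeR adjusted p = 0.0804). On the far side, *Selenok* at 934663 bases had 0.19 (SE 0.06, edgeR adjusted p = 0.0368), *Actr8* at 944692 bases had -0.19 (SE 0.06, edgeR adjusted p = 0.0353) and *Cacna1d* at 1006294 bases, an L-type calcium channel gene, had 0.67 (SE 0.21, edgeR adjusted p = 0.0353). *Erc2*, *Ccdc66*, *Fam208a* and *Arhgef3* did not pass the test, with log2 fold changes of -0.25, -0.15, 0.14 and -0.21.

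Around *Ppp1r1b*, the closest gene was *Stard3*, a cholesterol transport gene that begins 572 bases past its end, and its log2 fold change of -0.26 (SE 0.10) did not pass the test (edgeR adjusted p = 0.0838). It passed in 5 of the 22 alternatives, the replicate block among them (edgeR adjusted p from 0.0249 to 0.467 over all of them). *Tcap*, a sarcomere gene 26015 bases away, had 0.17 (SE 0.08, edgeR adjusted p = 0.142) and passed in 1 alternative (edgeR adjusted p = 0.0466), and *Pgap3* at 30881 bases fell by 0.23 on the log2 scale (SE 0.07, edgeR adjusted p = 0.0315). *Erbb2*, which encodes a receptor subunit through which neuregulin-1 signals, lies 54674 bases from *Ppp1r1b* and fell by 0.45 on the log2 scale (SE 0.05, edgeR adjusted p = 0.000184), from 162 ± 6.30 to 119 ± 3.45 CPM. The remaining tested genes on the other side, *Cdk12*, *Med1*, *Fbxl20* and *Stac2*, had log2 fold changes of -0.07, -0.07, 0.01 and -0.06 and did not pass. *Neurod2*, the nearest gene on that side, was at 0 counts in every library.

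Around *Arhgap36*, 4 of 10 neighbours were tested and 0 were called by the quasi-likelihood test of edgeR, by DESeq2 or by limma-voom (0 also at an unadjusted p under 0.05). *Enox2* at 175686 bases had a log2 fold change of -0.09 (SE 0.09), and *Igsf1* at 282292 bases, an immunoglobulin superfamily gene, had -0.15 (SE 0.18). *Rbmx2* and *Slc25a14* had -0.06 and 0.03. The other 6, among them 4 olfactory receptor genes, were too low to test. Over the 22 alternatives, including those that left out a single library, the call on *Erbb2* was kept in all, on *Cacna1d* in 14 (edgeR adjusted p up to 0.198), on *Pgap3* in 11 (up to 0.155), on *Selenok* in 10 (up to 0.212) and on *Actr8* in 9 (up to 0.237).

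**Figure D4:**
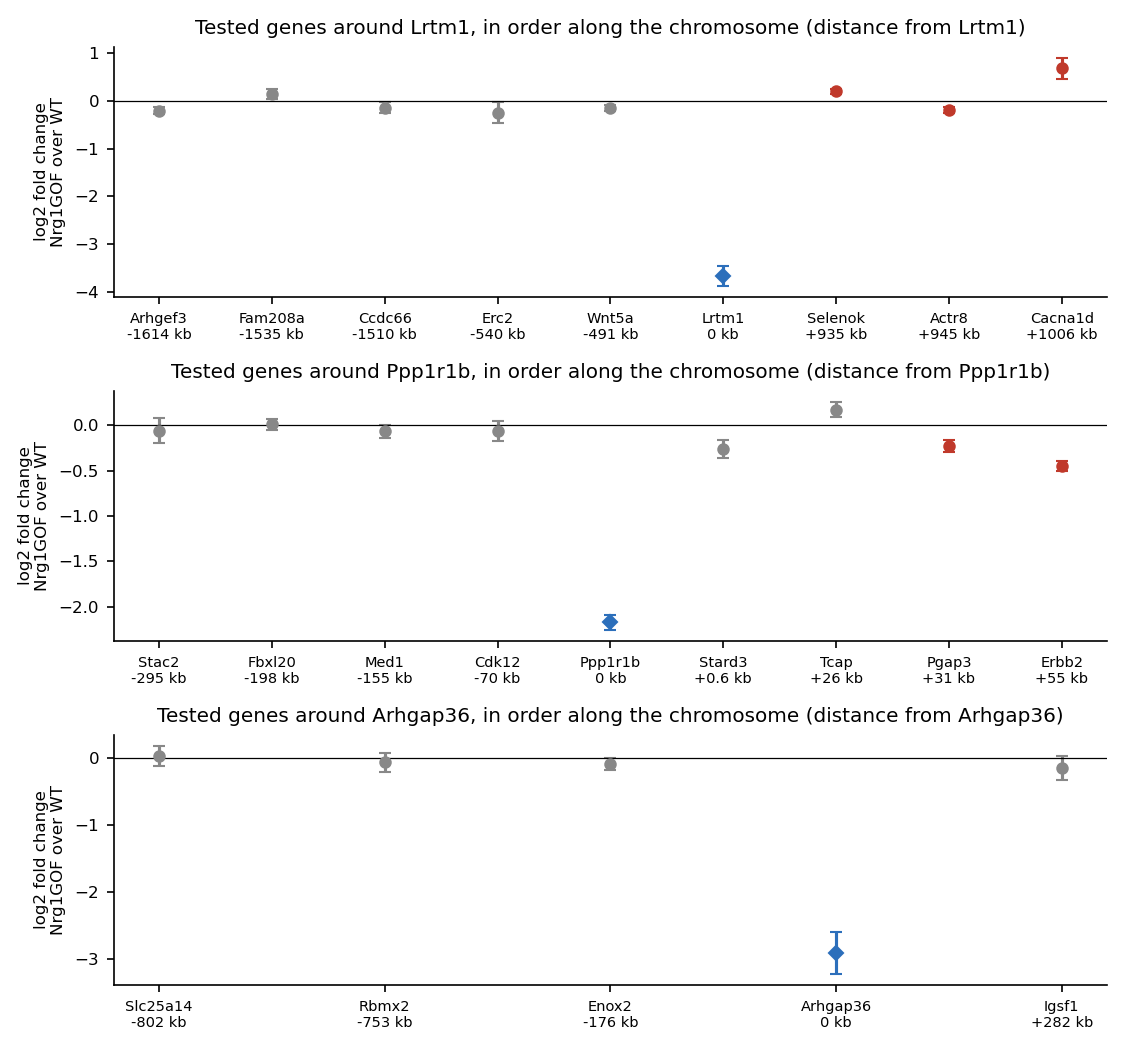
Log2 fold change of *Nrg1GOF* over WT with its SE (vertical axes) for the tested genes around *Lrtm1*, *Ppp1r1b* and *Arhgap36*, in their order along the chromosome and labelled with the distance in kilobases (spacing not to scale). Blue diamonds are the members, red circles genes with an edgeR adjusted p under 0.05 and grey circles the others; no neighbour leaves the band between -0.45 and 0.67.

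The PKA and PP1 genes, the partners of DARPP-32 and *Arhgap36*, were next described as a list of 45, of which 41 were tested. By the quasi-likelihood test of edgeR, 10 (24.4%) were called lower and 5 (12.2%) higher, beside 12.8% and 15.9% of all tested genes, and the list's median log2 fold change was -0.04. With the WT pairs summed, 7 of the list were called in place of 15, and without *Nrg1GOF* library 2 there were 9. Calls over all tested genes also fell, from 1993 lower and 2474 higher to 916 and 1548 with the pairs summed. Without library 2 they were 1370 and 1869. The steepest fall was that of *Pde1c*, a phosphodiesterase stimulated by calcium and calmodulin, by 1.18 on the log2 scale (SE 0.11, edgeR adjusted p = 7.47e-05), from 47.8 ± 4.57 to 21.4 ± 3.51 CPM. *Ppp1r1a*, the PP1 inhibitor-1 and a relative of DARPP-32, fell by 0.76 on the log2 scale (SE 0.09, edgeR adjusted p = 0.000215), from 29.6 ± 0.929 to 17.6 ± 2.21 CPM. *Ppp1r1c*, the other relative of DARPP-32 in the list, had at most 2 counts in a library and was not tested.

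Subunits of PKA moved in both directions. The regulatory subunit *Prkar2b* fell by 0.63 on the log2 scale (SE 0.09, edgeR adjusted p = 0.000651), and *Pkig*, a PKA inhibitor peptide, fell by 0.37 (SE 0.09, edgeR adjusted p = 0.0129). The regulatory subunits *Prkar1b* and *Prkar1a* rose, by 0.97 (SE 0.09, edgeR adjusted p = 7.18e-05) and 0.35 (SE 0.06, edgeR adjusted p = 0.00235). The adenylyl cyclases *Adcy7* and *Adcy3* rose by 0.61 (SE 0.10, edgeR adjusted p = 0.00144) and 0.60 (SE 0.11, edgeR adjusted p = 0.00383). The catalytic subunits of PKA (*Prkaca*, *Prkacb*) and PP1 (*Ppp1ca*, *Ppp1cb*, *Ppp1cc*), singled out after their values were seen, were all called lower, but by no more than 0.25 on the log2 scale, with edgeR adjusted p values from 0.0115 to 0.0492. The summed cardiomyocyte markers were at 86.4% of their WT level and macrophage and fibroblast markers were higher in *Nrg1GOF*, as given above, and the part of these shifts in the values of the list was not tested. Of the 22 alternatives, the call was kept in 20 for *Ppp1cc* and *Pkig*, 16 for *Prkaca*, 15 for *Ppp1cb*, 7 for *Ppp1ca* and 4 for *Prkacb*. *Cdk5*, whose product converts DARPP-32 into a PKA inhibitor, did not pass the test (log2 fold change 0.09, SE 0.09), and the dopamine receptor genes *Drd1*, *Drd2* and *Drd4* had 6 counts or fewer in each library.

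Hedgehog and GLI genes, the setting in which *Arhgap36* is best known, were described next. Of 18 listed genes 15 were tested, and by the quasi-likelihood test of edgeR 1 (6.67%) was called lower and 6 (40.0%) higher, beside 12.8% and 15.9% of all tested genes, with a median log2 fold change of 0.26 against -0.01. With the WT pairs summed, 4 of the list were called in place of 7. In that setting the calls over all tested genes fell from 1993 lower and 2474 higher to 916 and 1548. The co-receptors *Boc* and *Gas1* rose by 1.07 (SE 0.15, edgeR adjusted p = 0.000787) and 0.52 (SE 0.09, edgeR adjusted p = 0.00168) on the log2 scale, *Boc* from 14.6 ± 2.66 to 30.4 ± 5.53 CPM. *Gli3*, a mainly repressing GLI factor, rose by 0.96 (SE 0.13, edgeR adjusted p = 0.000545), and *Kif7*, a kinesin that acts on GLI proteins, by 0.62 (SE 0.13, edgeR adjusted p = 0.00581). The receptor *Ptch1*, a direct target of the pathway, fell by 0.29 on the log2 scale (SE 0.07, edgeR adjusted p = 0.00957). That call was lost against WT libraries 3 and 4 alone and with the WT pairs summed (edgeR adjusted p up to 0.0722), and the call on *Kif7* was lost against WT libraries 1 and 2 alone (edgeR adjusted p = 0.0538). *Gli1*, another direct target that was singled out after its values were seen, did not pass (log2 fold change -0.26, SE 0.41, edgeR adjusted p = 0.697) at 2 to 27 counts a library. The ligand gene *Shh* was at 0 counts in every library. *Boc*, *Gas1* and *Gli3* are also expressed by mesenchymal cells, whose markers were higher in *Nrg1GOF* as given above, and the part of those cells in these values was not tested.

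Relatives of *Lrtm1* were then examined. Of 32 membrane proteins with leucine-rich repeats 22 were tested, and by the quasi-likelihood test of edgeR 2 (9.09%) were called lower and 4 (18.2%) higher, near the 12.8% and 15.9% of all tested genes, with a median log2 fold change of 0.09 against -0.01. *Slitrk5* and *Lrrc4b*, both synaptic adhesion genes, fell by 1.18 (SE 0.19, edgeR adjusted p = 0.00148) and 0.65 (SE 0.09, edgeR adjusted p = 0.00053) on the log2 scale. The 4 called higher include *Lrrtm3*, which had 1 to 6 counts in the WT libraries and 11 to 27 in the *Nrg1GOF* libraries, so it passed the filter on low counts through the group where it is high. No test is given for it. *Slitrk2*, *Amigo3* and *Islr* rose by 1.04, 0.73 and 0.66 on the log2 scale, with edgeR adjusted p values of 0.0173, 0.014 and 0.00674. The call on *Slitrk2* was lost without *Nrg1GOF* library 2 (edgeR adjusted p = 0.0596) or WT library 3 (edgeR adjusted p = 0.0526), and that on *Amigo3* without *Nrg1GOF* library 2 (edgeR adjusted p = 0.0519). Both were also lost after thinning to the smallest library, against WT libraries 1 and 2 alone and with the WT pairs summed, *Amigo3* also against WT libraries 3 and 4 alone, with edgeR adjusted p values up to 0.242 for *Slitrk2* and 0.0725 for *Amigo3*. The call on *Islr* was lost against WT libraries 1 and 2 alone (edgeR adjusted p = 0.0582). *Lrtm2*, the namesake of *Lrtm1*, had 3 counts or fewer in every library and was not tested. Fibroblast and macrophage markers were higher in *Nrg1GOF*, as given above, and the part of these shifts in the values of this list was not tested.

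No gene of the 3 lists fell by more than 1.18 on the log2 scale. Since *Lrtm1*, *Ppp1r1b* and *Arhgap36* were chosen for the size of their falls, nothing is read from this difference.

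**Figure D5:**
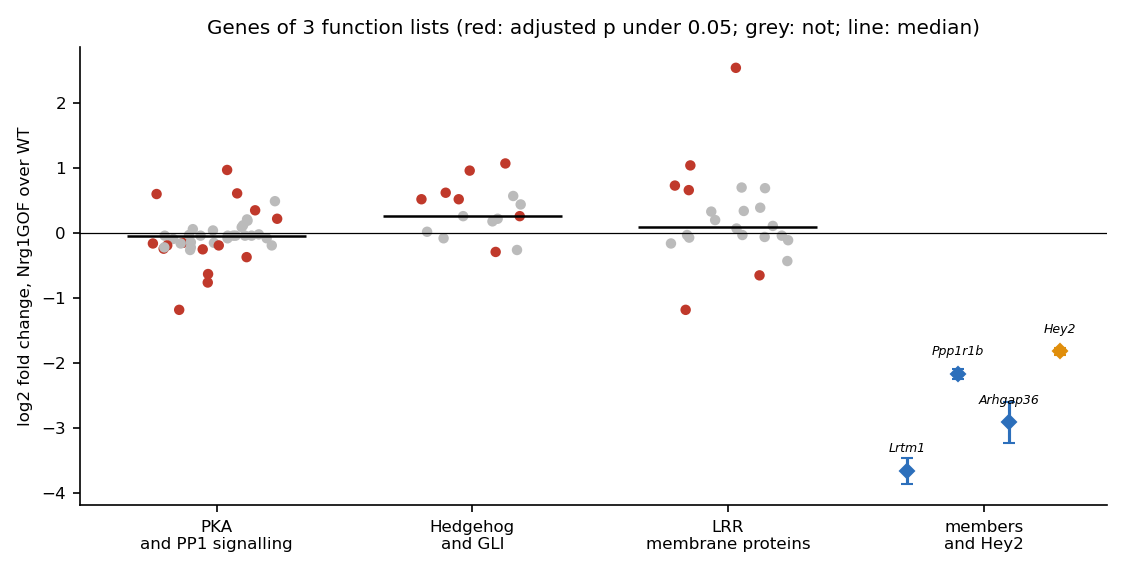
Log2 fold change of *Nrg1GOF* over WT (vertical axis) of the tested genes in 3 function lists, with *Lrtm1*, *Ppp1r1b*, *Arhgap36* (blue) and *Hey2* (orange) with their SE at the right; red points have an edgeR adjusted p under 0.05, grey points do not, and lines are list medians. The list genes lie between -1.18 and 2.54, and the point at 2.54 is *Lrrtm3*, which had 1 to 6 counts in the WT libraries.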

How the data were processed

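The deposited values are expected counts from RSEM, not scaled for depth or length; reads that map to several genes are divided among them, so 8.42% to 13.2% of a library's values were not whole. Per the labels, reads were single and 60 bases long, from directional poly(A) libraries of 100 ng RNA; the submitters' processing notes name cutadapt, RSEM 1.3.1 and GRCm38, and the table is named for Ensembl release 91. The aligner and strand setting are not given in the sources used here. Without the strand setting, reads of overlapping opposite-strand genes may not have been told apart.

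Expected counts were rounded, filtered with filterByExpr, scaled by TMM and compared with the quasi-likelihood F-test of edgeR 4.0.16 (R 4.3.3), with genotype as the sole term and Benjamini-Hochberg adjustment over 15580 genes, at 0.05. This follows the generalized linear model of the study. The SE was taken as the size of the log2 change over the square root of F. P-values measure only the spread between these samples. Positions come from GENCODE M21, a later release than that used for counting, and 53274 of 53465 genes had a symbol. Log2 CPM used a prior count of 2. The script was tested on simulated data.

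The members and lists were chosen with earlier results of these data known. A further list is not reported here. Genes named were the members, *Hey2*, *Nrg1*, all tested neighbours, up to 4 called genes per list and direction with the largest change, genes ranked between the members and the 5 nearest profiles of each. The other genes named (*Ush1c*, *Ppp1r1c*, *Cdk5*, *Drd1*, *Drd2*, *Drd4*, *Shh*, *Lrtm2*, *Neurod2*, *Gli1*, PKA and PP1 catalytic subunits and single markers) were chosen after their values were seen. Alternatives were the likelihood ratio test, DESeq2 1.42.0, limma-voom (limma 3.58.1), 3 scalings, 2 filters, a replicate block, a Y-linked covariate, thinning to the smallest total, each WT pair alone and leaving out each library. Summing WT libraries 1 with 2 and 3 with 4, which resemble each other in Y-linked and red blood cell transcripts, was added after the data were seen.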

Additional observations from a re-analysis of the deposited data

Results flagged for a closer look

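In groups of 4 libraries, a value was taken as standing apart when its gap to the nearest other value, divided by the range of the group, passed Dixon's 95% critical value. Of 42 groups examined 4 passed. Chance alone flags about 1 in 20, but the groups were not independent, since *Lrtm1* and its ratio to *Hey2* share the same counts. No excess is read from this. *Lrtm1* in *Nrg1GOF* library 4 was at 2.25 CPM against 1.00 to 1.13 CPM in the other libraries of its group (ratio 0.893). The ratio of *Lrtm1* to *Hey2* in the same library was 4.16 counts per 100 *Hey2* counts against 1.88 to 2.12 (ratio 0.893). The total of that library, 8038641 counts, also stood apart from its group (ratio 0.864), and its part in the *Lrtm1* value was not tested. *1700003D09Rik*, which overlaps exons of *Ppp1r1b*, was at 0.0476 CPM in *Nrg1GOF* library 2, a single count. It was at 0 in the other libraries, which by itself fixes the ratio at 1.0.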

How the results depend on the processing

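The log2 fold changes of the members kept their direction in all 22 alternatives. *Lrtm1* ran from -3.87 (without *Nrg1GOF* library 4) to -3.46 (thinned to the smallest total), *Ppp1r1b* from -2.22 to -2.10, *Arhgap36* from -3.19 (thinned) to -2.73 (without *Nrg1GOF* library 4) and *Hey2* from -1.87 to -1.78. *Arhgap36* rests on the fewest counts of the 3, with 1 to 15 in the *Nrg1GOF* libraries. Of 1665 alternative values, 1512 counted as the same (for tested genes the same direction and side of the threshold, for counts within 1.5 times, for the members a shift under the spread between libraries), and the cause of the other changes was not tested.

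Genes called lower numbered 1308 against WT libraries 1 and 2 alone and 916 with the WT pairs summed, which also gave 1548 called higher. Of the locus neighbours, 3 were called with the library total only, after thinning and under the replicate block, 2 with no low-count filter, 1 against WT libraries 1 and 2 alone, 1 with the WT pairs summed and 1 to 4 when single libraries were left out (1 without *Nrg1GOF* library 2 or WT library 3). Same-numbered libraries correlated at 0.0492 to 0.199 and differently numbered ones at -0.263 to 0.187. Not every library correlated best with its own number. Whether the numbers mark a shared litter or batch is not stated and was not tested. The replicate block gave 2117 genes called lower and 2407 higher, against 1993 and 2474 without it. Called PKA and PP1 genes numbered 8 against WT libraries 1 and 2 alone, 7 with the WT pairs summed and 9 to 14 when single libraries were left out. Called membrane proteins with leucine-rich repeats numbered 3 after thinning and 3 against WT libraries 1 and 2 alone, and called Hedgehog and GLI genes 4 with the WT pairs summed.

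The sign turned for 7 genes with no call. Against WT libraries 3 and 4 alone the log2 fold change was 0.0345 for *Erc2*, 0.155 for *Cdk12*, -0.0077 for *Fbxl20*, 0.0256 for *Stac2* and 0.129 for *Gli1*. *Rbmx2* was at 0.0455 after thinning and *Slc25a14* at -0.0104 with limma-voom. When single libraries were left out, *Cdk12* ran from -0.1360 to 0.0360, *Fbxl20* ran from -0.0169 to 0.0497, *Stac2* ran from -0.1325 to 0.0092, *Rbmx2* ran from -0.1449 to 0.0603 and *Slc25a14* ran from -0.0630 to 0.0954.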
